A study of Mus musculus with 6 samples.

Results

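Cholesterol and fatty acid synthesis were followed through 32 genes, chosen by symbol: 18 enzymes of sterol synthesis, 6 genes of SREBP control and sterol transfer, 4 lipogenic enzymes and 4 genes of LXR signalling and cholesterol efflux. All 32 were found, each with 1 gene ID, among 27502 genes listed for each sample. RNA came from 6 samples of vascular smooth muscle cells (contractile cells of arteries and veins) grown in culture from mouse aorta. In 3 samples Ezh2 was targeted with siRNA (siEzh2) and 3 were controls, with 48 hours given as the time. Ezh2 encodes the methyltransferase of Polycomb repressive complex 2, which marks chromatin with H3K27me3. The labels do not say what the controls received, which siRNA was used, the strain and age of the mice, or whether samples of a group were separate cultures. P-values therefore measure only the spread between these samples, and it may be technical.

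Cells make cholesterol from acetyl-CoA. The units are joined into mevalonate, then into isoprenoids and squalene, and squalene is closed into lanosterol and trimmed to cholesterol. Transcription of most of these enzymes is driven by SREBP factors, which stay in the endoplasmic reticulum with their escort SCAP while INSIG proteins and sterols hold them there, and which move to the Golgi for cleavage when sterols are low. SREBP-1 also drives fatty acid synthesis. When sterols are plentiful, oxysterols activate the nuclear receptors LXRα and LXRβ, which induce ABC transporters that export cholesterol. In the arterial wall, cholesterol loading of smooth muscle cells is a known feature of atherosclerosis.

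Values are FPKM, fragment counts divided by gene length and sequencing depth. The gene length that turns these values back into whole reads counts all exon bases of a gene. For Msmo1 these are 6144 bases, beside 2044 in its longest coding transcript, and for Sc5d 4866 beside 4787. Levels can therefore be compared only roughly between genes. Reads recovered from the steps of the values numbered 16080005 to 18753124 per sample. A fold change is siEzh2 minus control on log2(FPKM + 1), a scale that understates changes of low genes. A gene is called when its adjusted p is under 0.05 (limma, Benjamini-Hochberg over the 11869 genes whose mean reached 1 FPKM in either group). Ezh2 itself had 3.41, 3.59 and 3.88 FPKM in control samples and 1.20, 1.09 and 1.05 FPKM in siEzh2 samples, 3.26 times lower (log2 fold change -1.13, SE 0.0513, adjusted p = 5.15e-05, limma). Of the smooth muscle markers Acta2 had 699 ± 14.8 FPKM in control samples (SD, n = 3), Myl9 154 ± 2.43, Cald1 87.1 ± 0.870, Lmod1 16.8 ± 0.127 and Smtn 13.4 ± 0.252. Myh11 had 1.83 ± 0.149, Myocd 1.57 ± 0.0252 and Cnn1 1.14 ± 0.203. Tagln and Des were below 1 FPKM in every sample. Of the exon bases of Tagln, 67.9% lie in antisense genes, so its value is uncertain. Of 8 smooth muscle markers tested 6 fell and 1 rose (87.5% called, beside 46.9% of all tested genes). The summed level of 10 was 962 to 986 FPKM in control and 717 to 754 FPKM in siEzh2 samples. The part of these markers in the results below was not tested.

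All 32 genes passed the filter on low values. In siEzh2 samples 9 were higher, 10 were lower and 13 did not pass the test. Among all tested genes 46.9% were called, 24.1% higher and 22.7% lower. Of the 32, 59.4% were called, 28.1% higher, near the background, and 31.2% lower. The median fold change of the 32 was -0.06 on the log2 scale, beside 0.01 over all tested genes, and the median size was 0.20, beside 0.16. The changes were small: the largest FPKM ratios were those of Abcg1 (1.87 times lower), Fdps (1.52 times higher) and Tm7sf2 and Ebp (both 1.42 times lower). In 24 of the 32 genes (75%) all siEzh2 samples lay on the same side of all control samples, beside 58.1% of all tested genes. In bulk RNA, fewer cells of a type and less RNA per cell cannot be told apart.

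**Figure D1:**
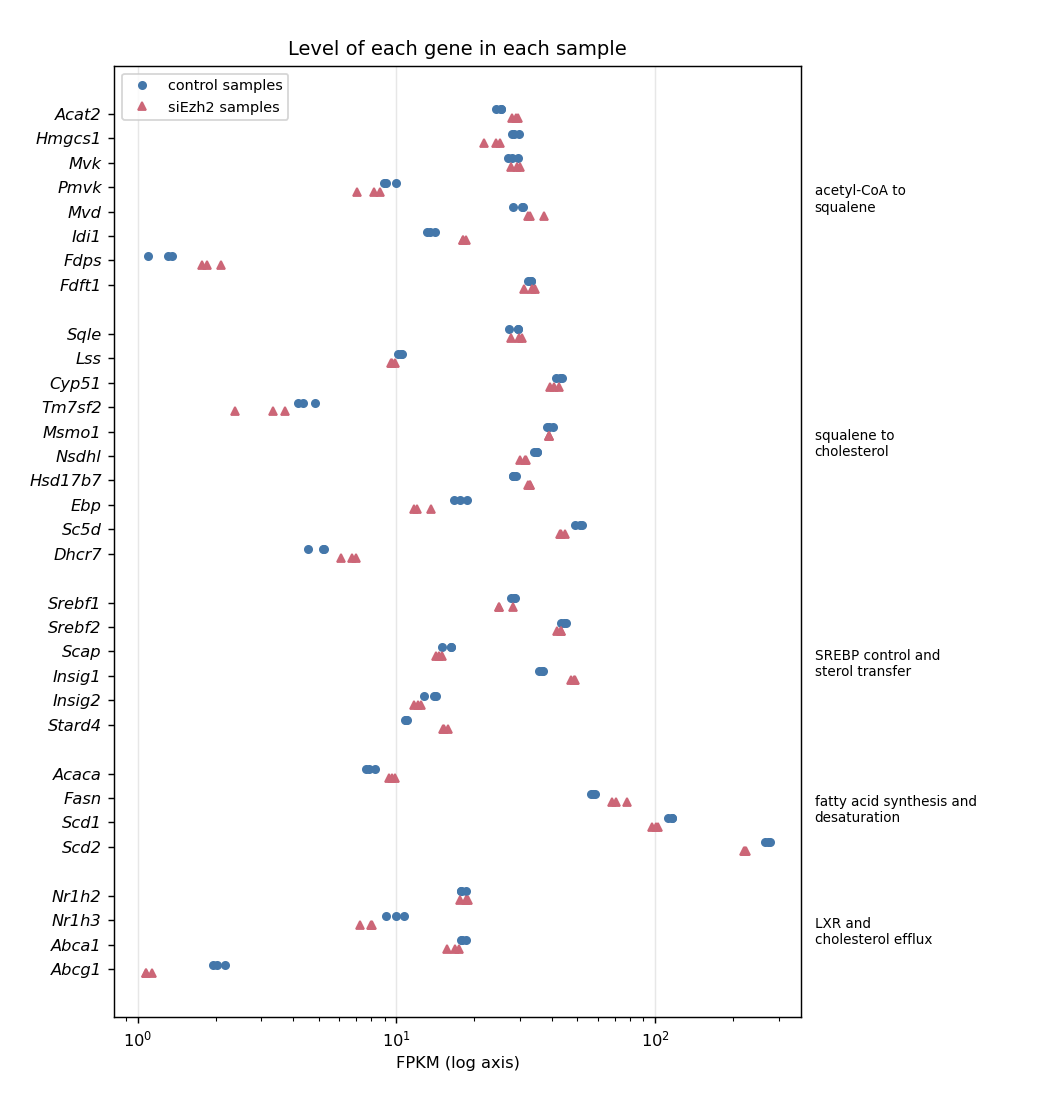
FPKM (log axis) of the 32 genes in each control sample (circles) and siEzh2 sample (triangles), grouped by branch. Scd2 has the highest FPKM and Fdps the lowest in control samples, and most pairs of groups lie close together beside the range of levels between genes.

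Promoter sequences are shown for 5 genes whose levels moved in opposite directions, Insig1, Idi1 and Fasn (higher) and Hmgcs1 and Ebp (lower), since promoters of this pathway are textbook SREBP targets. Each run is the 250 bases before the RefSeq start on GRCm38.p6, the same build as mm10, written 5′ to 3′ on the strand of the gene. Capitals mark the SREBP motif TCACNCCAC or its shorter form CACNCCAC (which lies inside the longer one), the NF-Y box CCAAT and the E-box CACGTG, on either strand.
Insig1, chr5:28071162-28071411, plus strand: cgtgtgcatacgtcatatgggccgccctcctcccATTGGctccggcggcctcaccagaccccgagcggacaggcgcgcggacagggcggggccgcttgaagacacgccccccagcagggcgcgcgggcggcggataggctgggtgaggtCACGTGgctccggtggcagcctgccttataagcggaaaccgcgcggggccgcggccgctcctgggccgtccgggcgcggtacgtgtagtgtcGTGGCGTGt
Idi1, chr13:8885356-8885605, plus strand: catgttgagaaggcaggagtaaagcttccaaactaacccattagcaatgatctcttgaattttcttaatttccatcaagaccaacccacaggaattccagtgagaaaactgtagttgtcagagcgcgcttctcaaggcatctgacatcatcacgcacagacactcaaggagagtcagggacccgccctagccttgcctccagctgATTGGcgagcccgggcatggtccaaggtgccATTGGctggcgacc
Fasn, chr11:120824548-120824797, minus strand: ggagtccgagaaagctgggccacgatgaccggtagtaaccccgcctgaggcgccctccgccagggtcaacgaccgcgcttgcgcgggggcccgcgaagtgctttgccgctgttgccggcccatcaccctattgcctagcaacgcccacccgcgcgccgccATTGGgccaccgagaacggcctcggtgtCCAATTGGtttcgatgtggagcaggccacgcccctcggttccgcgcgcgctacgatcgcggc
Hmgcs1, chr13:119690101-119690350, plus strand: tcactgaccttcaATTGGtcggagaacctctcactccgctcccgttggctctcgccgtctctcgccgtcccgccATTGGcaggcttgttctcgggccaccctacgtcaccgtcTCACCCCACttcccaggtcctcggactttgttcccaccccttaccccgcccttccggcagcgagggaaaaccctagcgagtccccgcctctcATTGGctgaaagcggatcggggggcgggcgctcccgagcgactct
Ebp, chrX:8193513-8193762, minus strand: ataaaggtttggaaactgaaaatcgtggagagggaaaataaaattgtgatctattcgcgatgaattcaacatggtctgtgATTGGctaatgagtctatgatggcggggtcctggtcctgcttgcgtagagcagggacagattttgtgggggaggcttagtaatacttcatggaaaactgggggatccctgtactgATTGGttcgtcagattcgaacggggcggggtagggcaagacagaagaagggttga
Of these 5 runs, that of Hmgcs1, which was lower, holds the longer SREBP motif, with 3 CCAAT boxes. Insig1 holds the shorter form just before its RefSeq start, an E-box and a CCAAT box. Idi1, Fasn and Ebp hold CCAAT boxes and no other of these motifs, and in Fasn 2 of its 3 boxes overlap. For Insig1 and Idi1 the gene positions given below begin before the RefSeq start. The shorter form in Insig1 and the marked boxes of Idi1 lie within the genes so placed.

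The same motifs were searched in windows from 250 bases before to 50 after the start, which the RefSeq table held for 25 of the 32 genes. TCACNCCAC was in 1 of the 25 (4%), beside 1.44% of all 27025 genes with a promoter, and CACNCCAC in 3 (12%), beside 7.12%. CCAAT was in 19 (76%), beside 41.1%, and CACGTG in 6 (24%), beside 8.09%. Among 82 other genes of these pathways, from the lists described further on, CCAAT was in 57.3%, CACGTG in 17.1%, CACNCCAC in 10.98% and TCACNCCAC in 2.44%. Split by direction, CCAAT was in 5 of 7 higher, 6 of 7 lower and 8 of 11 genes that did not pass. In the same order CACGTG was in 3, 1 and 2 genes, CACNCCAC in 2, 1 and 0 and TCACNCCAC in 0, 1 and 0. The shares over all genes include genes these cells do not express, while all 32 passed the filter on low values. These are matches of letters in short windows, given as a description.

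The first branch, from acetyl-CoA to squalene, held 3 higher and 1 lower gene of 8, or 2 lower, with Pmvk, when siEzh2 sample 3 was left out. With all samples 50% were called, beside 46.9% of all tested genes. Acat2, the cytosolic thiolase that joins acetyl-CoA units, had 25.3, 24.3 and 25.5 FPKM in control samples and 28.0, 29.1 and 29.5 FPKM in siEzh2 samples. All siEzh2 samples were above all control samples (log2 fold change 0.20, SE 0.0387, adjusted p = 0.0073, limma), while 19.8% of the longest transcript matched Tcp1 at 98% identity or more. Hmgcs1, the synthase of the next step (ENSMUSG00000093930, chromosome 13 from 119690379 to 119708260), went the other way, with 28.1, 28.4 and 29.7 FPKM in control samples and 25.2, 24.2 and 21.9 FPKM in siEzh2 samples. The groups did not overlap, siEzh2 sample 3 was the lowest, and the level was 1.21 times lower (log2 fold change -0.26, SE 0.0584, adjusted p = 0.0119, limma). Of its exon bases, 12.1% are shared with the antisense gene Gm48342, which had at most 0.227 FPKM in any sample.

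Further along the branch, Idi1, which isomerises isopentenyl diphosphate (ENSMUSG00000058258, chromosome 13 from 8885501 to 8892451 on the plus strand), rose. It had 13.2, 13.5 and 14.04 FPKM in control samples and 18.1, 18.6 and 18.1 FPKM in siEzh2 samples, 1.35 times higher, with little spread in either group (log2 fold change 0.40, SE 0.0372, adjusted p = 0.000469, limma). Its longest transcript matched Gm13502 and Gm48574 over 33.3% of its bases. Fdps, farnesyl diphosphate synthase, had the lowest FPKM of the 32 genes in control samples, at 1.31, 1.35 and 1.101. It had 2.10, 1.77 and 1.86 FPKM in siEzh2 samples (log2 fold change 0.37, SE 0.0635, adjusted p = 0.00473, limma). Its fold change was 0.57 with a pseudocount of 0.1 and 0.60 by limma-voom on recovered reads. These levels rest on 294 and 409 reads over 3 samples each, and 91.4% of the transcript is near-identical to Gm3571 or Gm43738, so the value of Fdps is uncertain. The near copy Gm3571 had 10.4, 10.5 and 10.2 FPKM in control samples and 11.7, 10.8 and 11.5 FPKM in siEzh2 samples.

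The other 4 genes of the branch did not pass. Mvk, mevalonate kinase, had 28.1 ± 1.19 FPKM in controls and 29.0 ± 1.16 FPKM with siEzh2 (SD, n = 3 per group), and overlapping groups. Fdft1, squalene synthase, which commits farnesyl units to sterols, had 32.9 ± 0.519 FPKM in controls and 32.9 ± 1.62 FPKM with siEzh2 (SD, n = 3 per group), with a 95% interval of its fold change of -0.11 to 0.11, and 18.3% of its exon bases lie in Ctsb on the other strand. Pmvk, phosphomevalonate kinase, and Mvd, the decarboxylase after it, had groups that did not overlap, in opposite directions. Pmvk had 8.98, 9.11 and 9.94 FPKM in control samples and 8.20, 7.01 and 8.62 FPKM in siEzh2 samples (adjusted p = 0.0643, or 0.0445 without siEzh2 sample 3, limma). Mvd had 28.2, 30.7 and 31.0 FPKM in control samples and 32.8, 32.3 and 37.3 FPKM in siEzh2 samples (adjusted p = 0.0705, limma). Summed over the 8 genes the level was 166 to 173 FPKM in control and 173 to 182 FPKM in siEzh2 samples.

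The second branch, from squalene to cholesterol, held 2 higher and 4 lower genes of 10 (60% called, beside 46.9% of all tested genes). Ebp, the sterol isomerase that moves the ring double bond (ENSMUSG00000031168, chromosome X from 8185329 to 8193512 on the minus strand), fell. It had 16.8, 18.7 and 17.7 FPKM in control samples and 13.6, 12.05 and 11.7 FPKM in siEzh2 samples, 1.42 times lower with no overlap (log2 fold change -0.47, SE 0.0677, adjusted p = 0.00222, limma). Sc5d, the desaturase of the following step, had the highest FPKM of the 18 sterol enzymes followed here. Its levels were 52.1, 49.2 and 51.0 FPKM in control samples and 44.9, 43.4 and 42.8 FPKM in siEzh2 samples (log2 fold change -0.21, SE 0.0385, adjusted p = 0.00579, limma). Nsdhl, a dehydrogenase of the C4 demethylation complex, had 35.1, 34.9 and 34.1 FPKM in control samples and 31.3, 31.5 and 30.02 FPKM in siEzh2 samples, 1.12 times lower (log2 fold change -0.16, SE 0.0359, adjusted p = 0.0128, limma). These 3 genes each had every siEzh2 sample below every control sample.

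Tm7sf2, a sterol C14 reductase, was lower in the test but varied more. It had 4.18, 4.37 and 4.83 FPKM in control samples and 2.37, 3.71 and 3.34 FPKM in siEzh2 samples, siEzh2 sample 1 being the lowest (log2 fold change -0.41, SE 0.126, adjusted p = 0.038, limma). Its fold change was -0.27 without that sample (adjusted p = 0.0309, limma). The call did not hold when control sample 1, 2 or 3 was left out (adjusted p = 0.0668, 0.0817 and 0.108, limma) nor without siEzh2 sample 3 (0.0633), with no filter (0.0992) or with a pseudocount of 0.1 (0.0527). Of its exon bases 12.1% lie in Vps51 on the same strand.

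The higher genes of this branch were Dhcr7 and Hsd17b7. Dhcr7, the reductase that turns 7-dehydrocholesterol into cholesterol (ENSMUSG00000058454, chromosome 7 from 143823145 to 143848410 on the plus strand), had 4.56, 5.24 and 5.204 FPKM in control samples and 6.75, 6.98 and 6.12 FPKM in siEzh2 samples, 1.32 times higher (log2 fold change 0.34, SE 0.0657, adjusted p = 0.00679, limma). Hsd17b7, the ketoreductase of the C4 demethylation complex, had 29.0, 28.3 and 28.3 FPKM in control samples and 32.7, 32.8 and 32.3 FPKM in siEzh2 samples (log2 fold change 0.19, SE 0.0318, adjusted p = 0.00439, limma). The complex thus had 1 higher gene, 1 lower gene (Nsdhl) and the oxidase Msmo1, which did not pass, with 39.2 ± 1.103 FPKM in controls and 39.0 ± 0.0430 FPKM with siEzh2 (SD, n = 3 per group).

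The remaining genes of this branch were within or near the spread between samples. Sqle, squalene epoxidase and a rate-limiting enzyme, had 29.4, 27.3 and 29.6 FPKM in control samples and 29.8, 27.6 and 30.4 FPKM in siEzh2 samples, overlapping throughout (95% interval of the fold change -0.10 to 0.15). Cyp51, the lanosterol demethylase, had 42.6 ± 1.09 FPKM in controls and 40.8 ± 1.70 FPKM with siEzh2 (SD, n = 3 per group), with a 95% interval of -0.16 to 0.05. Lss, the cyclase that makes lanosterol, had 10.5, 10.1 and 10.4 FPKM in control samples and 9.59, 9.84 and 9.55 FPKM in siEzh2 samples, which did not overlap but did not pass (adjusted p = 0.0724, limma). Summed over the 10 genes the level was 259.9 to 265 FPKM in control and 248 to 249 FPKM in siEzh2 samples, which did not overlap.

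**Figure D2:**
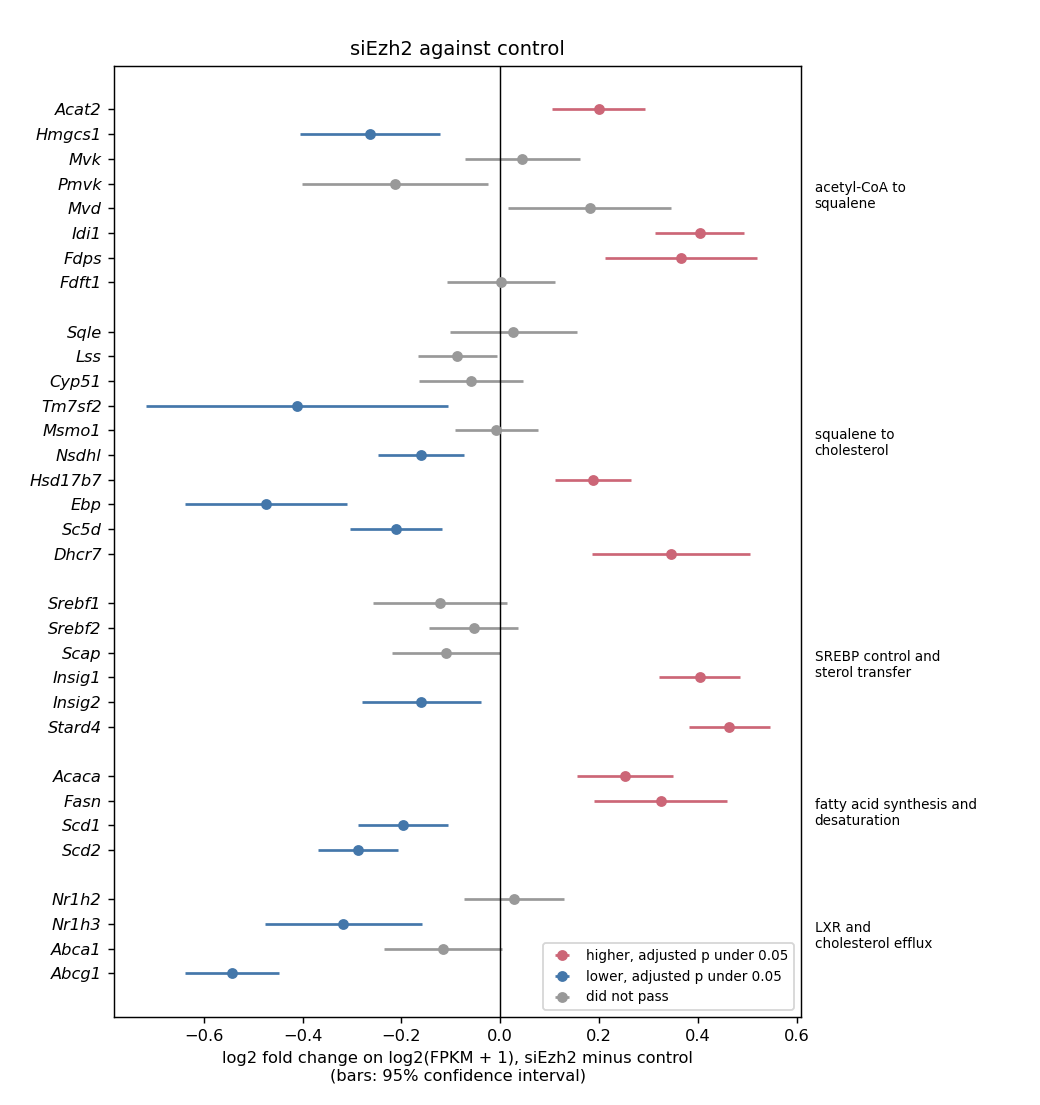
Fold change of each gene on log2(FPKM + 1), siEzh2 minus control, with its 95% confidence interval, in the order of the pathway (3 samples per group). Higher and lower calls and genes that did not pass alternate along sterol synthesis. The fatty acid synthesis genes Acaca and Fasn lie opposite to the desaturase genes Scd1 and Scd2, and no LXR gene was called higher.

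The 6 genes of SREBP control and sterol transfer held 2 higher and 1 lower (50% called, beside 46.9% of all tested genes). The factors that drive the pathway did not pass the test, and their regulators split. Srebf2, the main factor of sterol genes, had 44.5, 45.4 and 43.2 FPKM in control samples and 41.6, 43.3 and 43.1 FPKM in siEzh2 samples (95% interval -0.14 to 0.04). Srebf1, the factor of lipogenic genes, had 27.8, 28.6 and 28.7 FPKM in control samples and 24.9, 24.9 and 28.2 FPKM in siEzh2 samples, where siEzh2 sample 3 lay among the controls. Its adjusted p was 0.12 with all samples and 0.0169 without that sample (limma). Scap, the escort, had 15.8 ± 0.733 FPKM in controls and 14.6 ± 0.385 FPKM with siEzh2 (SD, n = 3 per group, adjusted p = 0.0892, or 0.0457 without control sample 2, limma), and 13.2% of its exon bases are shared with an antisense gene.

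Insig1, an anchor of the SCAP complex and itself a known SREBP target (ENSMUSG00000045294, chromosome 5 from 28071363 to 28078662 on the plus strand), rose. It had 36.7, 35.6 and 36.4 FPKM in control samples and 47.1, 48.9 and 48.7 FPKM in siEzh2 samples, 1.33 times higher (log2 fold change 0.40, SE 0.0342, adjusted p = 0.000335, limma). Its paralog Insig2, which is known to depend less on SREBP, had 12.8, 13.9 and 14.2 FPKM in control samples and 12.4, 11.7 and 12.2 FPKM in siEzh2 samples and was called lower (log2 fold change -0.16, SE 0.0497, adjusted p = 0.0395, limma). That call did not hold when control sample 2 or 3, or any 1 of the siEzh2 samples, was left out (adjusted p = 0.0575 to 0.115, limma) nor with no filter (0.0764). The ratio of Insig1 to Insig2 within a sample was 2.87, 2.56 and 2.57 in control and 3.79, 4.19 and 4.01 in siEzh2 samples, with no overlap. Stard4, a soluble carrier that moves sterol between membranes (ENSMUSG00000024378, chromosome 18 from 33199355 to 33213862 on the minus strand), had the smallest p of the 32 genes. It had 10.98, 10.8 and 10.9 FPKM in control samples and 15.1, 15.8 and 15.2 FPKM in siEzh2 samples, 1.41 times higher (log2 fold change 0.46, SE 0.0335, adjusted p = 0.000193, limma).

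All 4 lipogenic genes passed, 2 in each direction, where 46.9% of all tested genes were called. Acaca, acetyl-CoA carboxylase and the committed step of fatty acid synthesis, had 8.24, 7.64 and 7.86 FPKM in control samples and 9.39, 9.61 and 9.84 FPKM in siEzh2 samples (log2 fold change 0.25, SE 0.0401, adjusted p = 0.00337, limma). Its longest transcript matched Gm5182 over 64.3% of its bases, and that gene, with 4.70, 4.16 and 4.80 FPKM in control samples and 5.98, 6.40 and 7.04 FPKM in siEzh2 samples, moved the same way, so reads may have been split between them. Fasn, the synthase that makes palmitate (ENSMUSG00000025153, chromosome 11 from 120805846 to 120824547 on the minus strand), had 57.4, 58.3 and 56.3 FPKM in control samples and 68.0, 70.6 and 77.8 FPKM in siEzh2 samples, 1.26 times higher (log2 fold change 0.32, SE 0.0555, adjusted p = 0.00451, limma). All siEzh2 samples of both genes were above all control samples, and Fasn was highest in siEzh2 sample 3.

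The desaturases that turn saturated into monounsaturated fatty acids fell. Scd2 had the highest FPKM of the 32 genes (ENSMUSG00000025203, chromosome 19 from 44293674 to 44306864 on the plus strand). It had 266, 277 and 274 FPKM in control samples and 222, 221 and 225 FPKM in siEzh2 samples, 1.22 times lower (log2 fold change -0.29, SE 0.0333, adjusted p = 0.00102, limma). Scd1, its neighbour on chromosome 19, had 116, 112 and 116 FPKM in control samples and 100.3, 97.04 and 102 FPKM in siEzh2 samples (log2 fold change -0.20, SE 0.0380, adjusted p = 0.00712, limma). The groups of both genes were clearly apart, and the ratio of Fasn to Scd2 was 0.216, 0.211 and 0.206 in control and 0.307, 0.319 and 0.346 in siEzh2 samples. The ratio of Scd2 to Scd1 was 2.28, 2.48 and 2.36 in control and 2.21, 2.28 and 2.20 in siEzh2 samples, a narrow gap with no overlap.

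Of 8 tested markers of adipocytes, cells that are rich in desaturases, 5 fell in the same samples and none rose. That is 62.5% lower, beside 22.7% of all tested genes, and Cidec, Cfd and Car3 did not pass. The summed level of the 10 listed markers was 66.5 to 68.6 FPKM in control and 48.7 to 51.4 FPKM in siEzh2 samples. Adipoq had 8.79 ± 0.346 FPKM in controls and 7.38 ± 0.349 FPKM with siEzh2 (SD, n = 3 per group), while Lep and Retn were below 1 FPKM in every sample. The part of these markers in the fall of Scd1 and Scd2, or in the levels of Acaca and Fasn, which rose, was not tested.

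The LXR genes held 2 lower and no higher gene of 4 (50% called, beside 46.9% of all tested genes). Nr1h3, which encodes LXRα, had 9.14, 10.7 and 9.94 FPKM in control samples and 7.96, 7.22 and 8.06 FPKM in siEzh2 samples, 1.28 times lower with no overlap (log2 fold change -0.32, SE 0.0656, adjusted p = 0.00917, limma). Nr1h2, which encodes LXRβ, had 17.7, 17.8 and 18.6 FPKM in control samples and 17.6, 18.6 and 18.96 FPKM in siEzh2 samples, overlapping (95% interval -0.07 to 0.13). Abcg1, a transporter that passes cholesterol to HDL particles (ENSMUSG00000024030, chromosome 17 from 31057675 to 31117988 on the plus strand), had 2.02, 1.96 and 2.17 FPKM in control samples and 1.07, 1.08 and 1.13 FPKM in siEzh2 samples (log2 fold change -0.54, SE 0.0393, adjusted p = 0.000193, limma). The fold change of Abcg1 was -0.85 with a pseudocount of 0.1 and -0.90 by limma-voom on recovered reads, from 832 reads in the 3 control and 408 in the 3 siEzh2 samples.

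Abca1, the transporter that loads cholesterol onto apolipoprotein A-I, had 18.6, 17.99 and 17.7 FPKM in control samples and 15.6, 16.9 and 17.4 FPKM in siEzh2 samples. The groups did not overlap, but it did not pass (log2 fold change -0.12, adjusted p = 0.0981, limma). By limma-voom on recovered reads it was called lower (adjusted p = 0.0071). The ratio of Abca1 to Abcg1 was 9.24, 9.16 and 8.18 in control and 14.6, 15.7 and 15.4 in siEzh2 samples. Macrophages also carry Abcg1, and of 8 markers of macrophages and leukocytes Lyz2 (-1.03) and Csf1r (-0.89) fell and Cd68 (0.22) and Cd14 (0.28) rose on the log2 scale, with a summed level of 17.4 to 20.8 FPKM in control and 14.3 to 15.4 FPKM in siEzh2 samples. Ptprc and Itgam, defining leukocyte markers, had at most 0.0340 FPKM in any sample. The value of Itgam is uncertain, since 68.7% of its exon bases are shared with Gm49368 on the same strand. The part of these markers in the fall of Abcg1 was not tested.

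**Figure D3:**
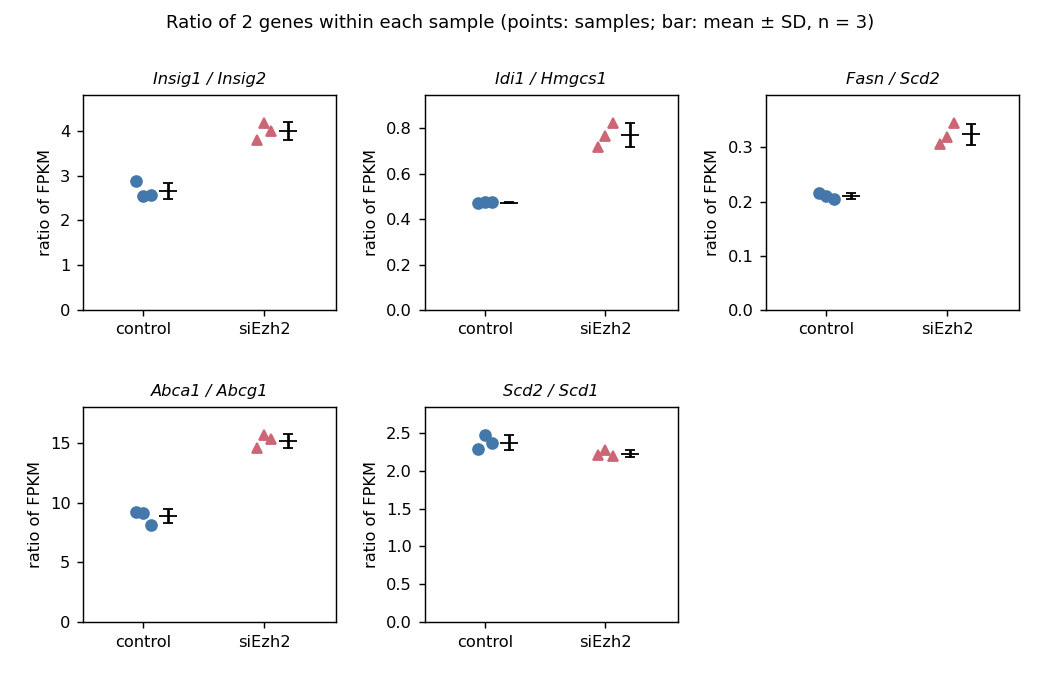
Ratio of the FPKM of 2 genes within each sample (points), with mean ± SD (n = 3) for control and siEzh2. The 5 pairs were chosen after the values were seen. The siEzh2 samples lie above the control samples in 4 of them and, by a narrow gap, below in Scd2 / Scd1.

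The neighbours of these genes were read from 6 further lists, of 110 genes in all, of which 95 were tested, 25 were higher and 21 lower. Those shares, 26.3% and 22.1% of tested genes, were near the background of 24.1% and 22.7%. The list of other sterol synthesis and SREBP processing genes had 9 higher and 2 lower of 14 (64.3% and 14.3%) and a median of 0.21 on the log2 scale, beside 0.01 over all tested genes. The lists were chosen with earlier results of these data known, so this excess is a description and was not tested.

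Hmgcs1 and Idi1, which lie on the same branch, moved apart. The ratio of Idi1 to Hmgcs1 was 0.469, 0.475 and 0.474 in control and 0.719, 0.767 and 0.825 in siEzh2 samples. The pairs of genes whose ratios are given were chosen after their values were seen, so no test was made on them.

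Genes that process or degrade pathway proteins were also among those that moved. Erlin2, a membrane scaffold of the endoplasmic reticulum in sterol-dependent degradation, rose from 8.96 ± 0.281 to 15.9 ± 0.604 FPKM (mean ± SD, n = 3 per group), the largest fold change in these 6 lists (log2 fold change 0.76, SE 0.0427, adjusted p = 9.32e-05, limma). Rnf145, a sterol-responsive ubiquitin ligase, and Mbtps1, the site-1 protease that cleaves SREBP, were higher by 0.49 and 0.36 on the log2 scale, named after their values were seen. Tmem97, a sterol-regulated membrane protein, had a call at -0.15 that 10 of 12 alternatives ended.

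Uptake and trafficking genes held 7 higher and 3 lower of 19 tested (52.6% called, beside 46.9% of all tested genes). Scarb1, the HDL receptor, rose from 6.90 ± 0.186 to 11.1 ± 0.400 FPKM (mean ± SD, n = 3 per group, log2 fold change 0.61, SE 0.0403, adjusted p = 0.000145, limma), Npc1, which releases cholesterol from lysosomes, by 0.39 and Lrp1, a large endocytic receptor, by 0.32. Stard5, a sterol-binding protein, was called lower, with a log2 fold change of -0.17.

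Other LXR targets and partners held 1 higher and 3 lower genes of 10 tested. Mylip, a ubiquitin ligase induced by LXR, fell from 5.65 ± 0.307 to 3.41 ± 0.362 FPKM (mean ± SD, n = 3 per group, log2 fold change -0.59, SE 0.0688, adjusted p = 0.00103, limma). Apoe, an apolipoprotein of cholesterol efflux, had 127, 124 and 128 FPKM in control samples and 93.8, 93.8 and 90.7 FPKM in siEzh2 samples, 1.36 times lower with no overlap. Smpdl3a, a phosphodiesterase induced by LXR, fell by 0.46 on the log2 scale, and Abca7 rose by 0.16. The 4 called of 10 are 40% of this list, beside 46.9% of all tested genes.

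The remaining lists showed no common direction. Called genes made up 35% of the first list below and 62.5% of the second, beside 46.9% of all tested genes. In further fatty acid synthesis, elongation and desaturation 2 of 20 tested genes were higher and 5 lower, with Hacd1 (0.34) and Hsd17b12 (0.15) higher and Hacd3 (-0.35), Mcat (-0.31) and Elovl6 (-0.30) the largest falls, as log2 fold changes. Elovl6 elongates palmitate, the product of Fasn, and had 9.25, 8.28 and 8.10 FPKM in control samples and 6.57, 6.72 and 6.91 FPKM in siEzh2 samples. In fatty acid activation and glycerolipid synthesis 4 of 16 were higher, led by Lpin3 (0.58), Agpat4 (0.37) and Acsl5 (0.27), and 6 lower, led by Agpat3 (-0.31), Gpam (-0.30) and Lpin1 (-0.25). The isoprenoid branch had 2 higher (Srd5a3 and Fntb) and 2 lower (Ggps1 and Dolk) of 16, a share of 25% beside the background of 46.9%, and the rest did not pass. Of these calls, those of Hacd1, Srd5a3, Fntb, Mcat, Hsd17b12 and Ggps1 were each lost under at least 1 alternative.

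**Figure D4:**
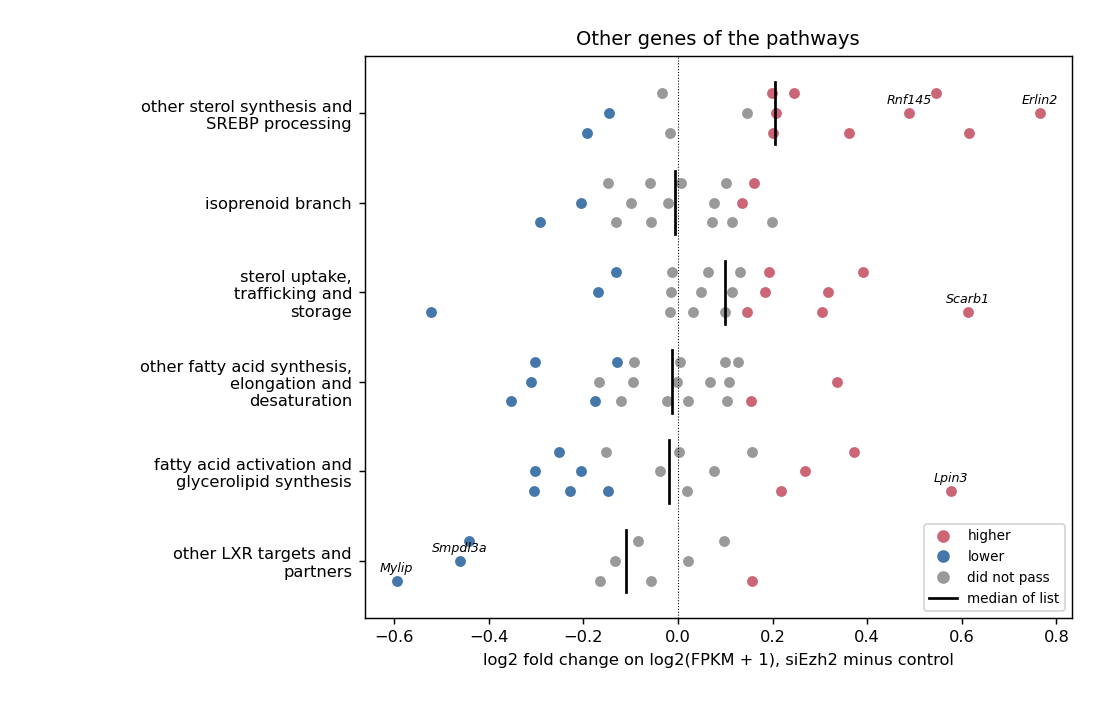
Log2 fold change on log2(FPKM + 1), siEzh2 minus control, of the tested genes in 6 lists outside the 32 (points, coloured by call, with labels for 6 genes named in the text) and the median of each list (bar). The first list has its median at 0.21, the others lie between -0.11 and 0.10. The lists were chosen with earlier results of these data known.

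Genes encoded in mitochondria, whose share can reflect RNA or cell quality, were lower with siEzh2 for 8 of 13, with no rise and a median of -0.24 on the log2 scale. That is 61.5% lower, beside 22.7% of all tested genes. Endothelial markers were low, at 4.13 to 4.42 FPKM in control and 4.87 to 5.48 FPKM in siEzh2 samples over 8 genes. Of 5 fibroblast markers tested Dpt fell from 24.8 ± 1.151 to 10.2 ± 0.392 FPKM (mean ± SD, n = 3 per group), Lum fell by 0.84 on the log2 scale and Pdgfra rose by 0.38. The summed level of the 6 listed was 335 to 357 FPKM in control and 350.0 to 365 FPKM in siEzh2 samples, most of it from Ly6a, which had 272 ± 11.2 FPKM in controls and 294 ± 6.15 FPKM with siEzh2 (SD, n = 3 per group) and did not pass. The part of any of these in the results above was not tested.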

How the data were processed

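RNA of 3 control and 3 siEzh2 samples was sequenced from TruSeq Stranded mRNA libraries, per the labels' protocols. The authors deposited 1 table of FPKM values per sample, named FPKM per the file headers. Trimmomatic, HISAT2, Cufflinks, HTSeq and the build mm10 are named in the submitters' processing notes, without versions. No source used here says whether counting used the strand, so genes that overlap another on either strand, and near copies, are uncertain.

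The 11869 genes whose mean reached 1 FPKM in either group entered a fit on log2(FPKM + 1) by limma 3.58.1 (R 4.3.3), with no covariate, and were called at an adjusted p under 0.05 (Benjamini-Hochberg over all tested genes). SD and ratios are of FPKM. Reads were recovered from the steps of FPKM times exon length (GENCODE M21): 98.4% to 98.5% of values under 1000 reads were whole within 0.02 of a read, and limma-voom on these reads called 3202 genes higher and 3027 lower. Gene positions are those of GENCODE M21, which held 99.8% of the IDs. Near copies are the share of the longest coding transcript that matches other genes at 98% identity over at least 75 bases (BLAST), a check chosen after values were seen. The scripts were tested on simulated data. There 50 genes were changed at each simulated fold. Of those tested, 29 of 48 with a 1.25-fold change were called in the right direction, and 47 of 49 with a 3-fold change. Of 176 calls 13 were false. Small changes can therefore be missed, but far more genes were called in the real data, so these shares may not carry over. Correlations of log2 values were 0.992 to 0.994 between samples of a group, and no sample was a copy of another.

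The 32 genes and the lists were chosen with earlier results of these data known. Named were all 32, Ezh2, markers by their list and, in each further list, the first 3 called genes by size of fold change in each direction, beside exceptions stated in the text; some of these are not reported here. The alternatives were no filter, a pseudocount of 0.1, quantile normalization, limma's trend and robust options, a replicate block, limma-voom, and leaving out each sample.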

Additional observations from a re-analysis of the deposited data

How the results depend on the processing

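Over the 12 alternatives the counts of higher and lower genes stayed within 1.5 times of the values reported, for all tested genes (2309 to 3202 higher, 2156 to 3027 lower) and for the 32 genes, with 9 to 10 higher and 8 to 15 lower, the 15 being by limma-voom. Of the 19 called genes 17 were called under every alternative, and the exceptions were Tm7sf2 and Insig2. Leaving out 1 sample at a time, the log2 fold change of Fdft1 ran from -0.0256 to 0.0409, that of Sqle from -0.00929 to 0.0668 and that of Msmo1 from -0.0255 to 0.0135. Signs reversed for these 3 genes, none of which had passed: the log2 fold change of Fdft1 was -0.0112 without control replicate 3, -0.0107 without siEzh2 replicate 2 and -0.0256 without siEzh2 replicate 3, that of Sqle was -0.00929 without control replicate 2 and -0.000410 without siEzh2 replicate 3, and that of Msmo1 was 0.0135 without control replicate 3. The cause was not tested. With the replicate number as a block 2564 genes were higher and 2385 lower, with 9 and 10 among the 32, where Insig2 lost its call (adjusted p = 0.0823, limma) and Pmvk gained one (0.0445). Pmvk was also called lower with limma's trend and robust options (0.0425) and by limma-voom (0.0392). By limma-voom Lss (0.0370), Srebf1 (0.00974), Scap (0.0174) and Abca1 (0.0071) were called lower too. Mvd was called higher by limma-voom (0.00533) and with limma's trend and robust options (0.0409). Lower calls among SREBP control and sterol transfer genes went from 1 to 0 where Insig2 was lost alone and to 3 by limma-voom. Deviations of samples with the same number correlated at 0.0243, 0.0695 and 0.0405, so the numbers were not taken to pair the samples, although each sample correlated best with its own number. Low genes rest on few reads, as for Fdps and Abcg1, and their fold changes depend on the pseudocount.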
